A study of Mus musculus with 12 samples.

Results

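The genes of the activator protein 1 (AP-1) transcription factor and of 3 further immediate early factors were examined in MLE-12 cells under lipopolysaccharide (LPS) and under hyperoxia. The 10 genes, Fos, Fosb, Fosl1, Fosl2, Jun, Junb, Jund, Egr1, Egr2 and Ier2, were chosen by name from the 34745 genes of the expression table, and all 10 had enough counts to be tested in every comparison. Earlier results of these data were known when the genes were chosen. MLE-12 is a line of mouse lung epithelial cells used as a model of the alveolar type II (AT II) cell. The LPS group received 100 ng/mL LPS in 21% oxygen, and the Hyp group was kept in 85% oxygen without LPS. The groups LPS + M2-Exo and Hyp + M2-Exo had the same injury and then 10 μg/mL of M2-Exo, which are exosomes from MH-S cells, a mouse alveolar macrophage line, after polarization with IL-4. The sample titles give 24 h as the time, and each group had 3 libraries. There was no group of uninjured cells, so LPS can only be set against hyperoxia, models that differ in both the LPS and the oxygen. The labels do not say whether the LPS and the hyperoxia libraries were cultured and prepared together, so LPS, oxygen and any such difference cannot be told apart in a gap between the models. No source used here says that the 3 libraries of a group were separate cultures, so the p-values measure the spread between libraries, which may be technical.

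AP-1 is a dimer of a Jun protein with a Fos protein or with a second Jun protein, joined through leucine zippers, and it binds DNA at short palindromic sites in the control regions of genes for growth, stress responses and matrix breakdown. Fos, Fosb, Jun, Junb, Egr1, Egr2 and Ier2 are classical immediate early genes: growth factors, stress and inflammatory signals switch them on within minutes through MAP kinases, without the need for new protein, and their short-lived mRNAs then decline. Fosl1 and Fosl2 encode the Fos-related antigens Fra-1 and Fra-2, which are usually induced later and last longer, and Jund is the family member with the steadiest expression in resting cells. A single time point therefore shows the level at which each gene stood when the cells were harvested, not its early peak.

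Total counts lay between 16021833 and 24074616 per library. LPS and hyperoxia libraries differed across most of the transcriptome. Of the genes tested, 75.8% differed between LPS and Hyp by edgeR's quasi-likelihood test at a Benjamini-Hochberg adjusted p under 0.05, and 73.7% between LPS + M2-Exo and Hyp + M2-Exo. By contrast 0.187% of genes differed between LPS + M2-Exo and LPS, and 0.101% between Hyp + M2-Exo and Hyp. Of the markers of AT II and epithelial cells, Abca3 had 2825 to 3757 counts per library, Krt8 2240 to 3689 and Sftpc 240 to 433, whereas Sftpa1 and Sftpd had at most 1 count, Krt18 at most 4 and Epcam at most 21. Marker lists of other cell types also differed between the models. The 14 macrophage markers summed to between 440.9 and 488.6 CPM (counts scaled to the size of the library) in LPS and between 116.4 and 122.2 in Hyp, with 10 of the 12 that were tested higher in LPS and 1 lower, Chil3 at 0 in all 12 libraries and Arg1 at no more than 3 counts. With M2-Exo that sum was 349 to 396.5 CPM in LPS + M2-Exo and 90.6 to 136 in Hyp + M2-Exo. Fibroblast markers summed to 817.3 to 843.1 CPM in LPS and 329.8 to 357.3 in Hyp, and AT II and epithelial markers to 562.2 to 578 CPM and 343.7 to 358.2. Dcn, with 7196 to 14843 counts per library, made up most of the fibroblast sum. Higher in LPS were 4 of 6 fibroblast markers tested and 7 of 8 AT II and epithelial markers, with Sftpb lower. Of 4 endothelial markers tested, 3 were lower and 1 higher. Over all genes 37.8% were higher and 38% lower. The part of these differences in the results on the AP-1 genes was not tested, and fewer cells of a type cannot be told apart from less RNA per cell.

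The Fos family genes lie on separate chromosomes, each with 4 exons in its longest coding transcript in GENCODE, and the Jun family genes are each a single exon. On GRCm38, as the table gives their positions, Fos (ENSMUSG00000021250) is at chr12:85473890-85477273, Fosb (ENSMUSG00000003545) at chr7:19302721-19310045, Fosl1 (ENSMUSG00000024912) at chr19:5447703-5455945 and Fosl2 (ENSMUSG00000029135) at chr5:32135801-32157842. Jun (ENSMUSG00000052684) is at chr4:95049034-95052222, Junb (ENSMUSG00000052837) at chr8:84976909-84978748 and Jund (ENSMUSG00000071076) at chr8:70697739-70700616.

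The 250 bases before the transcription start are shown for 4 of the genes that were higher in hyperoxia. RefSeq entries on GRCm38.p6, less those left out as described below, were matched by symbol and held a promoter for 7 of the 10 genes. Capitals mark TGACG, the core of the site that cyclic AMP response element binding factors and some AP-1 dimers recognize, and GCGGGGGCG, a site recognized by the Egr zinc fingers. The windows are those of Fos (chr12:85473640-85473889, plus strand), Fosb (chr7:19310046-19310295, minus strand), Jun (chr4:95052223-95052472, minus strand) and Junb (chr8:84978749-84978998, minus strand), each written 5′ to 3′ on the strand of its gene.
Fos: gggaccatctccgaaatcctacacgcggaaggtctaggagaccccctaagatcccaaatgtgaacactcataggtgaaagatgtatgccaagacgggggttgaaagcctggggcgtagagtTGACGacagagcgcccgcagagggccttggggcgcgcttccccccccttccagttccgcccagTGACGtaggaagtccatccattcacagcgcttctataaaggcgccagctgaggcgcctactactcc
Fosb: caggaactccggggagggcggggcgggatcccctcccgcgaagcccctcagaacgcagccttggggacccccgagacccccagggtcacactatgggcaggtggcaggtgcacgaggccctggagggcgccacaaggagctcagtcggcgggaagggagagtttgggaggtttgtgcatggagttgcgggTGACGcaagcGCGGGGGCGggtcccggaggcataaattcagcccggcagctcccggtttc
Jun: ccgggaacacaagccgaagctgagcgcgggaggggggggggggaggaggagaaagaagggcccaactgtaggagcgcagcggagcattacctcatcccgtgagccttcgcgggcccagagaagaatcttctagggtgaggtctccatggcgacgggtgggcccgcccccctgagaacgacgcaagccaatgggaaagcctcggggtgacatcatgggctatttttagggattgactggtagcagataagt
Junb: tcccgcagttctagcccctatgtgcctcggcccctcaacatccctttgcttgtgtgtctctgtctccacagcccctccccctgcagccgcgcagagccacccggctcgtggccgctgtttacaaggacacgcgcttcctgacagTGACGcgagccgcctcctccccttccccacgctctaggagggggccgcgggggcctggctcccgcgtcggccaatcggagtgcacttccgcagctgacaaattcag

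TGACG was found 125 to 129 and again 62 to 66 bases before the start of Fos, 56 to 60 bases before that of Fosb and 102 to 106 bases before that of Junb, and GCGGGGGCG 42 to 50 bases before that of Fosb. Fosl2, which was higher in LPS and whose window is not shown, also held GCGGGGGCG, 71 to 79 bases before its RefSeq start. That window (chr5:32136222-32136471, plus strand) lies inside the gene position given above, downstream of the start given there. Both strands were searched, and the full sites TGACGTCA (which holds TGACG) and TGACTCA and the CArG box of serum response factor had no match in the 4 windows. Of 32817 RefSeq promoter windows searched the same way, 17.7% held TGACG, 1.55% TGACGTCA, 4.46% TGACTCA, 1.47% a CArG box and 2.57% GCGGGGGCG. Entries on chromosome 18 were left out of these windows and of the matching by symbol. Egr1 lies on that chromosome, so whether RefSeq holds a promoter for Egr1 was not examined. Only exact matches within the 250 bases were searched. Sites further upstream, and variants such as the tgacatca in the Jun window, were therefore not counted. Matches of letters are a description of the windows.

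Between the models, 7 of the 10 genes were lower in LPS than in Hyp, 2 were higher and 1, Egr2, did not pass the test. The same 7, 2 and 1 genes were found in LPS + M2-Exo against Hyp + M2-Exo, which shares no library with the first comparison. Over all genes 38% were lower and 37.8% higher in LPS, 75.8% in all, and with M2-Exo 37.1% and 36.5%, 73.7% in all, so a count of 9 of 10 is not a result about these genes, and the sizes and the directions carry the description. The study's own thresholds, a change of 2 or more on the log2 scale at an unadjusted p below 0.05, were passed by Fosb and Fosl1 in both comparisons, 2 of 10 genes beside 7.68% of all genes without M2-Exo and 7.2% with it. The 7 lower genes were Fos, Fosb, Fosl1, Jun, Junb, Egr1 and Ier2, and the 2 higher genes were Fosl2 and Jund. The median log2 fold change of the 10 genes was -0.96 without and -0.85 with M2-Exo, beside -0.01 and -0.01 over all genes tested. Gaps of these sizes were common: 34.6% of all genes differed between LPS and Hyp by at least as much as Fos and 32.6% as Jun. The share was 25% for Fosl2, 20.5% for Junb, 19.7% for Ier2 and 12.7% for Egr1. For 9 of the 10 genes the 3 LPS libraries and the 3 Hyp libraries did not overlap, as for 78.8% of all genes, and with M2-Exo again 9 of 10, beside 77% of all genes.

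**Figure D1:**
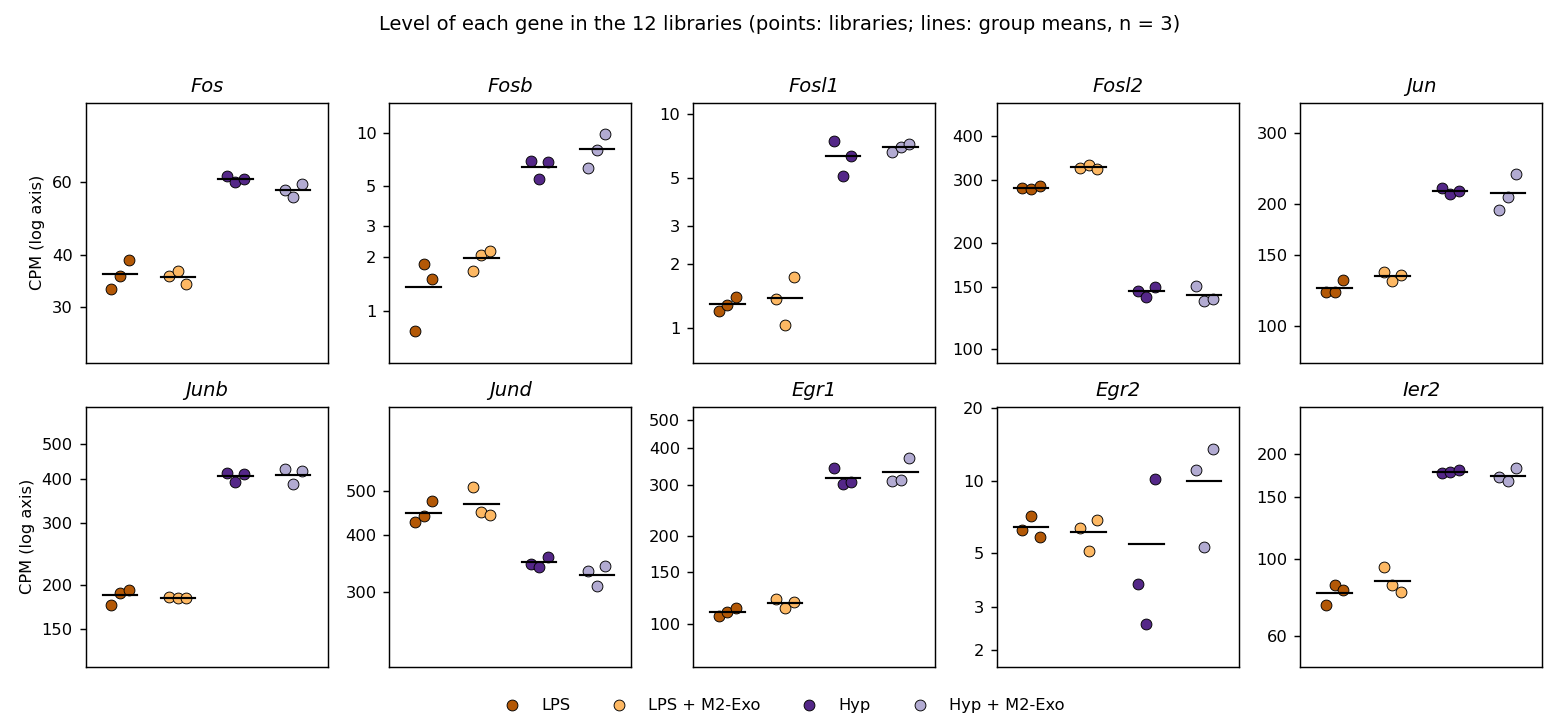
Level of each of the 10 genes in CPM on a log axis, with 1 point per library (3 per group) and a line at the group mean. The hyperoxia libraries lie above the LPS libraries for 7 genes and below them for Fosl2 and Jund, whereas the 3 Hyp libraries of Egr2 spread from 2.55 to 10.2 CPM.

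Fos encodes the founding Fos protein, which needs a Jun partner to bind DNA. It measured 33.1, 35.7 and 39 CPM in the LPS libraries and 61.8, 59.8 and 60.8 CPM in the Hyp libraries. With M2-Exo it measured 35.6, 36.7 and 34 CPM in LPS and 57.2, 55.1 and 59.2 CPM in hyperoxia. Every hyperoxia library was thus higher than every LPS library. The level in Hyp was 1.69 times that in LPS (log2 fold change of LPS against Hyp -0.76 ± 0.07 SE, adjusted p = 1.78e-05 by edgeR), and with M2-Exo 1.61 times (-0.69 ± 0.06, adjusted p = 1.4e-05).

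Fosb and Fosl1 had the lowest counts of the Fos family and the widest gap between the models. Fosb, a paralog of Fos known for a truncated long-lived splice form, measured 0.77, 1.83 and 1.51 CPM in LPS (14, 34 and 28 counts) and 6.95, 5.53 and 6.86 CPM in Hyp (168, 126 and 171 counts). It measured 1.67, 2.07 and 2.18 CPM in LPS + M2-Exo and 6.34, 8 and 9.78 CPM in Hyp + M2-Exo. The groups did not overlap, and the Hyp level was 4.68 times the LPS level (-2.23 ± 0.25, adjusted p = 7.19e-05 by edgeR) and 4.04 times with M2-Exo (-2.01 ± 0.21, adjusted p = 4.28e-05). Fosl1, which encodes Fra-1, a target of ERK signalling often raised in injured epithelium, measured 1.21, 1.29 and 1.4 CPM in LPS and 7.48, 5.13 and 6.34 CPM in Hyp. With M2-Exo it measured 1.36, 1.04 and 1.73 CPM in LPS and 6.63, 7.02 and 7.24 CPM in hyperoxia. Hyperoxia was again the higher model in every library. Fosl1 in Hyp was 4.84 times its level in LPS (-2.28 ± 0.19, adjusted p = 1.29e-05 by edgeR) and 4.99 times with M2-Exo (-2.32 ± 0.18, adjusted p = 9.11e-06). Only 5.78% of all genes tested differed between LPS and Hyp by as much as Fosl1, and 6.07% by as much as Fosb.

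Fosl2 went the other way. It encodes Fra-2, which like Fra-1 lacks the strong activation domain of Fos. It measured 285.7, 283 and 288.8 CPM in LPS and 146.1, 140.3 and 149.9 CPM in Hyp. With M2-Exo the levels were 324.6, 331.7 and 323.5 CPM in LPS and 150.6, 136.8 and 138.4 CPM in hyperoxia. Every LPS library was higher than every hyperoxia library. The LPS level was 1.97 times the Hyp level (log2 fold change 0.97 ± 0.03, adjusted p = 1.23e-07 by edgeR) and 2.3 times with M2-Exo (1.2 ± 0.04, adjusted p = 2.1e-07).

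The makeup of the Fos family differed between the models, while without M2-Exo its sum did not separate them. By FPKM, which corrects for gene length and can be compared between genes, Fos, Fosb, Fosl1 and Fosl2 summed to 34.2 ± 0.92 (SD, n = 3) in LPS and 35.1 ± 1.48 in Hyp, with overlapping libraries. Fosl2 made up 68.4% to 71.8% of that sum in the LPS libraries and 35.8% to 37.5% in the Hyp libraries. Fos made up 25.5% to 28.3% in LPS and 46.4% to 48.8% in Hyp. Fosl1 and Fosb together stayed the minor members, at 2.16% ± 0.1 and 1.03% ± 0.4 in LPS against 10.8% ± 1.59 and 5.04% ± 0.42 in Hyp. With M2-Exo the sum was 37.5 ± 0.41 in LPS and 34.5 ± 0.97 in hyperoxia, without overlap, and the Fosl2 share was 72.4% to 72.5% and 34.7% to 38.6%. These shares and sums are a description, with no test. FPKM are scaled by total counts, without the further scaling of the CPM. The sums of both families are therefore not on the scale of the fold changes.

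**Figure D2:**
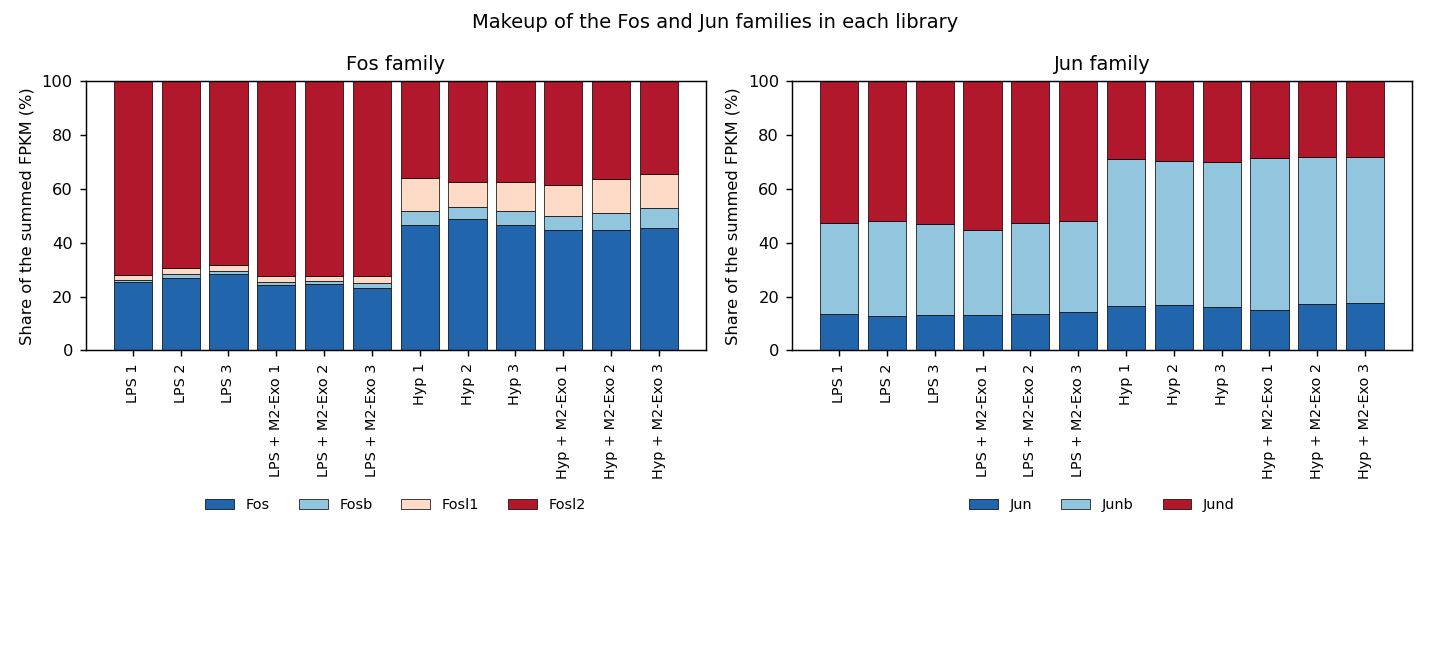
Share of each gene in the summed FPKM of its family (percent), with 1 bar per library. Fosl2 takes 68.4% to 72.5% of the Fos family in the LPS libraries and 34.7% to 38.6% in the hyperoxia libraries, and Jund gives way to Junb as the leading Jun gene in hyperoxia.

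Jun encodes c-Jun, the classical Fos partner and a substrate of JNK. It measured 121.7, 121.6 and 129.9 CPM in LPS and 220.1, 212.8 and 215.8 CPM in Hyp. With M2-Exo it measured 136.2, 129.3 and 133.4 CPM in LPS and 193.6, 208.9 and 238 CPM in hyperoxia. Hyperoxia was higher in every library, and the Hyp + M2-Exo libraries were the most scattered. The Hyp level was 1.74 times the LPS level (-0.8 ± 0.04, adjusted p = 5.66e-07 by edgeR), and 1.6 times with M2-Exo (-0.68 ± 0.07, adjusted p = 5.38e-05). Jun overlaps the opposite-strand gene Junos, which had 4 to 14 counts per library, and the sources used here do not say whether counting used the strand.

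Junb, whose protein can oppose c-Jun at many promoters, had a wider gap between the models than Jun. It measured 176, 190.3 and 193.8 CPM in LPS and 414.4, 391.6 and 412.3 CPM in Hyp. In the groups with M2-Exo it measured 185.2, 183.4 and 183.1 CPM in LPS and 425.7, 385.5 and 419.6 CPM in hyperoxia. The groups did not overlap, and the level in Hyp was 2.17 times that in LPS (-1.12 ± 0.05, adjusted p = 2.74e-07 by edgeR) and 2.23 times with M2-Exo (-1.16 ± 0.04, adjusted p = 2.57e-07).

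Jund, whose protein often restrains growth, was the Jun gene that was higher in LPS. It measured 426.9, 440.6 and 474.3 CPM in LPS and 346.9, 340.9 and 359.4 CPM in Hyp. With M2-Exo it measured 509.5, 450.5 and 442.2 CPM in LPS and 333.3, 309.3 and 341.9 CPM in hyperoxia. The groups did not overlap, but the gap was the smallest among the 9 genes that passed, 1.28 times in LPS against Hyp (0.36 ± 0.05, adjusted p = 0.000169 by edgeR) and 1.42 times with M2-Exo (0.51 ± 0.06, adjusted p = 0.000125). At least as large a difference between LPS and Hyp was found in 63% of all genes. Jund overlaps Gm11175 on the opposite strand, with 7 to 24 counts per library.

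The Jun family differed in its sum as well as in its makeup. Jun, Junb and Jund summed to 287.3 ± 12.9 FPKM (SD, n = 3) in LPS and 423.5 ± 10.5 FPKM in Hyp, without overlap, and to 293.9 ± 14.3 and 415.6 ± 20.4 FPKM with M2-Exo. Jund led in LPS with 52% to 53% of the sum, ahead of Junb with 33.9% to 35.1%. In Hyp the order was turned, with Junb at 53.5% to 54.3% and Jund at 29.1% to 30%. The share of Jun was 13.2% ± 0.3 in LPS and 16.5% ± 0.28 in Hyp. With M2-Exo, Junb made up 31.4% to 33.7% in LPS and 54.1% to 56.7% in hyperoxia.

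Egr1, a zinc finger factor induced by serum, oxidative stress and stretch in lung cells, measured 106.5, 109.5 and 113.5 CPM in LPS and 343.3, 302.6 and 306.5 CPM in Hyp. It measured 121.5, 112.9 and 118.3 CPM in LPS + M2-Exo and 310.1, 311.9 and 370.6 CPM in Hyp + M2-Exo. The lowest hyperoxia library was thus far above the highest LPS library. The Hyp level was 2.89 times the LPS level (-1.53 ± 0.05, adjusted p = 1.44e-07 by edgeR) and 2.81 times with M2-Exo (-1.49 ± 0.07, adjusted p = 8.08e-07). Ier2, a small nuclear protein induced together with Fos, measured 73.7, 84.2 and 81.6 CPM in LPS and 176.6, 177.3 and 180.1 CPM in Hyp. With M2-Exo it measured 94.6, 84.2 and 80.5 CPM in LPS and 171.2, 166.9 and 181.8 CPM in hyperoxia. The models did not overlap, with Hyp at 2.23 times LPS (-1.16 ± 0.05, adjusted p = 4.29e-07 by edgeR) and at 2.01 times with M2-Exo (-1 ± 0.07, adjusted p = 3.41e-06).

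Egr2, a paralog of Egr1 known for its role in myelination and in macrophage and lymphocyte regulation, differed by more within the hyperoxia groups than between the models. It had 114, 133 and 108 counts in LPS, 103, 79 and 123 in LPS + M2-Exo, 90, 58 and 254 in Hyp and 265, 119 and 282 in Hyp + M2-Exo. The third Hyp library was thus high beside the first and the second, and the second Hyp + M2-Exo library was low. The coefficient of variation was 10.5% in LPS and 75% in Hyp. LPS against Hyp gave 0.21 ± 0.45 (adjusted p = 0.68 by edgeR), and without the third Hyp library 1.02 (adjusted p = 0.00269). With M2-Exo the difference was -0.69 ± 0.31 (adjusted p = 0.0764), and without the second Hyp + M2-Exo library -1 (adjusted p = 0.00121 by edgeR), and with all libraries kept it passed under 3 of 8 other settings (lowest adjusted p 0.0224, by DESeq2). Leaving out a library did not turn its sign in the comparison with M2-Exo (-0.42 to -1), but did in that without (-0.13 to 1.02).

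Per length, Jund led the 10 genes in LPS at 150.9 ± 7.62 FPKM (SD, n = 3), followed by Junb (98.5 ± 4.77), Ier2 (50.9 ± 3.47), Jun (37.9 ± 1.29), Fosl2 (23.9 ± 0.15), Egr1 (14.2 ± 0.4), Fos (9.2 ± 0.72), Egr2 (1.15 ± 0.13), Fosl1 (0.74 ± 0.05) and Fosb (0.35 ± 0.14). No neighbours in this order overlapped. In Hyp, Junb led at 228.1 ± 6.92 FPKM, followed by Jund (125.4 ± 3.56), Ier2 (120.9 ± 1.54), Jun (70.1 ± 1.05), Egr1 (43.6 ± 2.98), Fos (16.6 ± 0.25), Fosl2 (12.9 ± 0.44), Fosl1 (3.82 ± 0.7), Fosb (1.77 ± 0.22) and Egr2 (1.04 ± 0.79). Here Jund and Ier2 overlapped, as did Fosb and Egr2. Egr1 and Fos thus stood below Fosl2 in LPS and above it in Hyp. The order was the same with M2-Exo in each model, where Egr2 and Fosl1 also overlapped in LPS + M2-Exo.

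**Figure D3:**
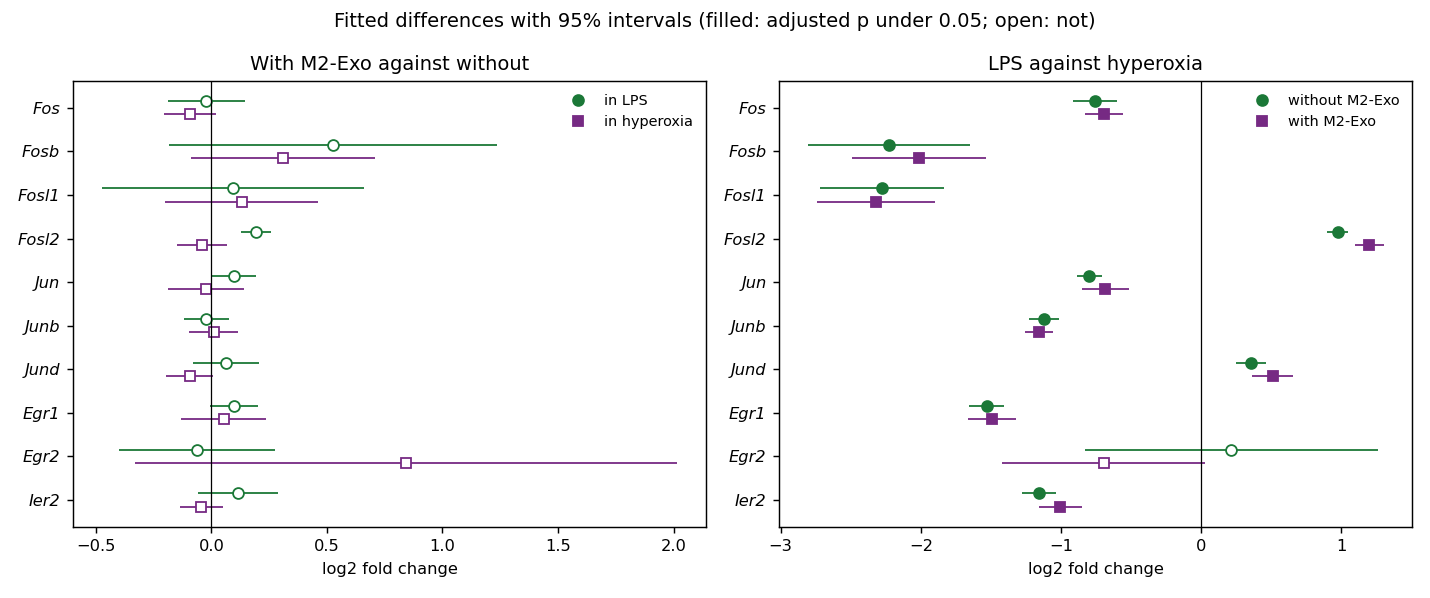
Fitted log2 fold change of each of the 10 genes with its 95% interval, at left for M2-Exo against no M2-Exo and at right for LPS against hyperoxia. Filled symbols pass an adjusted p under 0.05: none at left, and at right 9 of 10 in both comparisons, with Egr2 open.

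M2-Exo moved none of the 10 genes past the test. By edgeR's adjusted p, 0 of 10 genes passed in LPS + M2-Exo against LPS, where 0.187% of all genes did, and 0 of 10 in Hyp + M2-Exo against Hyp, where 0.101% did. At an unadjusted p under 0.05 the counts were 1 of 10 in LPS (11.1% of all genes) and 0 of 10 in hyperoxia (8.48%), and DESeq2 called 1 gene in LPS and 0 in hyperoxia. These comparisons use the same libraries as those between the models. For the 7 genes with more than 30 CPM in every library, which are Fos, Fosl2, Jun, Junb, Jund, Egr1 and Ier2, the 95% intervals of the M2-Exo log2 difference lay between -0.21 and 0.29 in both models. The intervals of the rarer genes were wider. In LPS they ran from -0.19 to 1.24 for Fosb, from -0.47 to 0.66 for Fosl1 and from -0.4 to 0.27 for Egr2. In hyperoxia they ran from -0.09 to 0.71 for Fosb, from -0.2 to 0.46 for Fosl1 and from -0.33 to 2.02 for Egr2.

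The gene nearest to a call was Fosl2 in LPS. Its levels lay between 283 and 288.8 CPM without M2-Exo and between 323.5 and 331.7 CPM with it, without overlap, as for 17.2% of all genes. The difference was 1.14 times (log2 0.19 ± 0.03, 95% interval 0.13 to 0.26, unadjusted p = 0.00015), with an adjusted p of 0.0645 by edgeR, 0.00977 by DESeq2 and up to 0.308 over the other settings. In hyperoxia the Fosl2 difference was -0.04 ± 0.05 (95% interval -0.15 to 0.07, adjusted p = 0.804 by edgeR). The test of the difference between the models gave 0.23 ± 0.05 (unadjusted p = 0.00142, adjusted p = 0.243 by edgeR). It reached an adjusted p of 0.0437 without the first Hyp + M2-Exo library, and 0.0632 by DESeq2 with all libraries. None of the 10 genes passed this test, beside 0.0352% of all genes, and 1 of 10 had an unadjusted p under 0.05, beside 9.78%. Of the macrophage markers, 0 of 11 tested passed in LPS + M2-Exo against LPS by edgeR's adjusted p, 7 had an unadjusted p under 0.05 and 10 had a log2 difference below 0 (median -0.31). Their part in the Fosl2 value was not tested.

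In hyperoxia, Fos was the gene whose libraries with and without M2-Exo did not overlap, beside 16% of all genes. It measured 59.8 to 61.8 CPM in Hyp and 55.1 to 59.2 CPM in Hyp + M2-Exo, a log2 difference of -0.09 ± 0.05 (adjusted p = 0.61 by edgeR). Egr2 had the largest estimate, 0.84 ± 0.51 (adjusted p = 0.642), on the scattered counts described above. Zak, the kinase upstream of p38 and JNK that the study concerns, measured 133.5 ± 1.26 CPM (SD, n = 3) in LPS, 132.9 ± 3.56 in LPS + M2-Exo, 115.6 ± 3.93 in Hyp and 113.9 ± 3.28 in Hyp + M2-Exo. Its M2-Exo difference was -0.01 ± 0.04 in LPS (adjusted p = 0.976 by edgeR) and -0.03 ± 0.04 in hyperoxia (adjusted p = 0.864).

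Other genes of the same response were taken from lists written by hand with earlier results of these data known. Their counts and medians therefore describe the lists and are no independent test. Of 38 further immediate early genes, 36 were tested between LPS and Hyp, of which 27 were lower in LPS, 7 higher and 2 did not pass, beside 38% lower and 37.8% higher over all genes, with a median of -0.78. With M2-Exo 25 of 35 were lower and 7 higher, beside 37.1% and 36.5% of all genes, with a median of -0.71. The largest gaps below were those of Nr4a3, an orphan nuclear receptor (8.08 ± 0.68 CPM in Hyp, SD, n = 3, and 0.34 ± 0.14 in LPS), Spry4, a feedback inhibitor of receptor tyrosine kinase signalling (7.39 ± 0.57 and 0.29 ± 0.19), and Ptgs2, the inducible cyclooxygenase (277.1 ± 1.88 and 36.2 ± 2.32). Ptgs2 gave -2.94 ± 0.05 without M2-Exo (adjusted p = 1.38e-08 by edgeR) and -3.02 ± 0.07 with it. The genes that were higher in LPS included Trib1, a pseudokinase that acts on C/EBP factors (102.3 ± 3.75 CPM in LPS and 28.1 ± 1.6 in Hyp), Dusp1, the phosphatase that switches off p38 and JNK (77.9 ± 2.88 and 30 ± 2.7), and Zfp36l1, which promotes mRNA decay (112.1 ± 2.98 and 58.9 ± 6.43). With M2-Exo, Klf4 took the place of Zfp36l1 among the 3 largest (0.89 ± 0.06, adjusted p = 3.47e-06 by edgeR). The immediate early genes thus did not all share a direction.

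**Figure D4:**
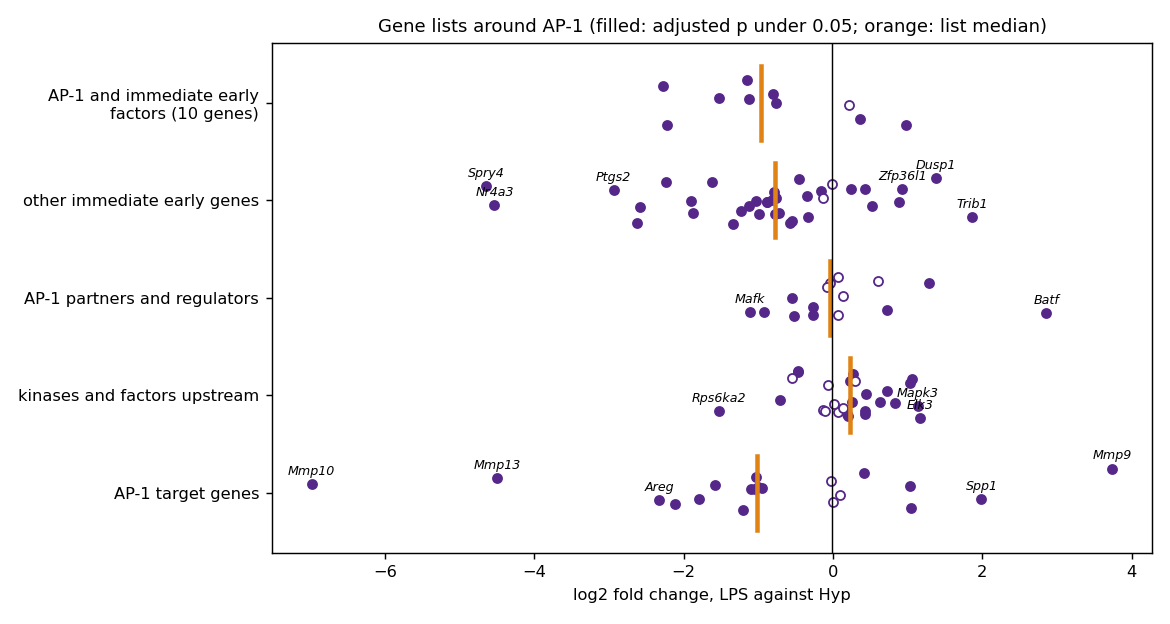
Log2 fold change of LPS against Hyp for the genes of the lists named at left, 1 point per gene, filled where the adjusted p is under 0.05, with an orange line at the list median and a black line at the median of all genes tested (-0.01). The medians are -0.96 for the 10 AP-1 and immediate early genes, -0.78 for other immediate early genes, -0.04 for AP-1 partners, 0.22 for upstream kinases and factors and -1.01 for AP-1 target genes.

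Among 17 dimer partners and regulators of AP-1, 15 were tested and the median was -0.04, with 3 higher and 6 lower in LPS than in Hyp (1 and 6 of 14 with M2-Exo). That is 9 of 15 and 7 of 14, beside 75.8% and 73.7% of all genes. Mafk, a small Maf protein, was the lowest (103.5 ± 1.42 CPM in LPS and 222.8 ± 5.2 in Hyp, -1.11 ± 0.03, adjusted p = 5.91e-08 by edgeR), followed by Det1, part of a ubiquitin ligase that acts on c-Jun (-0.92 ± 0.1, adjusted p = 7.45e-05), and Mafg (-0.55 ± 0.03). The higher genes included Batf, with 11 to 16 counts in LPS and 0 to 4 in Hyp, and Maf, with 22 to 29 and 9 to 18 counts. With M2-Exo the gene that was higher was Jdp2, a repressor of AP-1 (0.24 ± 0.06, adjusted p = 0.00533 by edgeR). Maf is also expressed in macrophages, whose markers were mostly higher in LPS too, with Itgax lower. The part of macrophage RNA in the Maf value was not tested.

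Of 28 kinases and factors upstream of the immediate early genes 27 were tested, and 15 were higher and 4 lower in LPS than in Hyp, beside 37.8% and 38% of all genes, with a median of 0.22. With M2-Exo 16 were higher and 5 lower, beside 36.5% and 37.1%, with a median of 0.26. Mapk3, which encodes ERK1, measured 154.8 ± 3.71 CPM in LPS and 70.3 ± 2.37 in Hyp (1.14 ± 0.04, adjusted p = 1.26e-07 by edgeR). Elk3, a ternary complex factor, measured 40 ± 2.82 and 17.8 ± 0.21 CPM, and Rps6ka3, an ERK-activated kinase, differed by 1.06 ± 0.27 with libraries scattered from 157.7 to 349.7 CPM in LPS and from 107.7 to 157.5 in Hyp, and by 0.61 ± 0.06 with M2-Exo. Rps6ka2, another kinase of that family, was lower in LPS (5.03 ± 0.42 and 14.5 ± 1.02 CPM, -1.53 ± 0.1), as were Braf (-0.71 ± 0.03) and Mapk8, which encodes JNK1 (-0.47 ± 0.05). With M2-Exo the third largest difference above 0 was that of Mapk9, for JNK2 (0.98 ± 0.05, and 0.82 ± 0.05 without), and the third largest below 0 that of Srf (-0.41 ± 0.05, and -0.46 ± 0.04 without). Zak was higher in LPS by 0.21 ± 0.04 (adjusted p = 0.00082 by edgeR) and with M2-Exo by 0.22 ± 0.04. Mapk14, which encodes p38α, spread from 44.9 to 110.6 CPM within Hyp and did not pass (-0.55 ± 0.3, adjusted p = 0.123 by edgeR). With M2-Exo its sign was the opposite (0.57 ± 0.45, adjusted p = 0.278). Its libraries then spread from 59.5 to 146.5 CPM in LPS + M2-Exo and from 39.8 to 113.7 in Hyp + M2-Exo. Its M2-Exo difference was 0.71 ± 0.28 in LPS (adjusted p = 0.407 by edgeR) and -0.41 ± 0.46 in hyperoxia (adjusted p = 0.797). These are mRNA levels, and the phosphorylation through which the kinases act was not analysed here.

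Of 24 genes known as AP-1 targets, 20 were tested, with 12 lower and 5 higher in LPS than in Hyp, beside 38% and 37.8% of all genes, and a median of -1.01. With M2-Exo the counts were again 12 and 5 of 20, beside 37.1% and 36.5%, with a median of -0.74. Mmp13, a collagenase and a classical target of Fos and Jun, measured 0.42 ± 0.18 CPM in LPS (4 to 10 counts) and 9.5 ± 0.77 in Hyp (212 to 257 counts). Mmp10 had 14 to 22 counts in Hyp and 0 in every LPS library. Areg, a ligand of the EGF receptor, measured 2.44 ± 0.42 and 12.2 ± 0.28 CPM (-2.32 ± 0.12, adjusted p = 9.34e-07 by edgeR). The targets that were higher in LPS included Mmp9, a gelatinase (1.93 ± 0.17 CPM and 0.14 ± 0.05), Spp1, which encodes osteopontin (49.2 ± 1.53 and 12.4 ± 2.11), and Hmga1 (16.1 ± 0.6 and 7.79 ± 0.67). Ccnd1, the cyclin D1 gene, was higher in LPS both without M2-Exo (1.03 ± 0.04, adjusted p = 1.5e-07 by edgeR) and with it (1.19 ± 0.05, adjusted p = 5.21e-07). Mmp9 and Spp1 are also abundant in macrophages, and the part of macrophage RNA in their values was not tested.

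None of the genes in these 4 lists passed the test for M2-Exo in either model, by edgeR's adjusted p. At an unadjusted p under 0.05, the counts in LPS were 6 of 32 immediate early genes, 1 of 15 partners, 5 of 27 upstream genes and 4 of 18 targets, beside 11.1% of all genes. In hyperoxia they were 6 of 36, 0 of 14, 4 of 27 and 0 of 20, beside 8.48%. In LPS the smallest adjusted p belonged to Ctgf among the immediate early genes (0.2 ± 0.04, adjusted p = 0.205 by edgeR) and to Spp1 among the targets (-0.29 ± 0.05, 0.135). In hyperoxia the smallest of each list belonged to Phlda1 (-0.17 ± 0.05, adjusted p = 0.541 by edgeR), Maf (0.74 ± 0.34, 0.596), Mapk7 (-0.18 ± 0.06, 0.544) and Fst (-0.21 ± 0.13, 0.645).

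Across the 12 libraries the levels of Fos, Fosb, Fosl1, Jun, Junb, Egr1 and Ier2 followed each other (Pearson's r of log2 CPM, 0.993 for Junb and Egr1 and 0.939 for Fos and Fosb), and Fosl2 ran against them (-0.985 with Junb). Egr2 followed none of them, with r between 0.02 and 0.14 for these 7. Such values mostly repeat the split between the models, and the libraries share their scaling. Within groups, taking each library's departure from its group mean, r was highest for Jun and Egr1 (0.86), Jund and Ier2 (0.82) and Fos and Junb (0.75). Other pairs were lower, such as Fos and Jun (0.424), Jun and Junb (0.205), Fos and Fosl1 (0.014) and Fosl1 and Ier2 (-0.018). For Fosl2 this r was -0.47 with Jun, 0.24 with Fos and 0.57 with Junb, so the opposite course across libraries was not seen with every gene within groups. Of 10224 candidate genes, those with the pattern of levels most like that of Junb were Slc35e4, E2f8 and Wrap53 (r of 0.999, 0.998 and 0.998), for Egr1 Mbd1, Tcf19 and Gem (0.999, 0.997 and 0.997), for Jun Simc1, Whamm and Cherp (0.997, 0.996 and 0.995), for Ier2 Klrg2, Nsf and Med27 (0.997, 0.996 and 0.996) and for Fos Ddx49, Slc9a3r1 and Farsa (each 0.993). By departures from group means, the genes most like Jun included Hexim1 and Ing1 (0.965 and 0.964), and those most like Fos were Msantd3, Prim2 and Pofut2 (0.946, 0.928 and 0.923). All of these are the highest values among 10224 candidates over 12 libraries, and whether they exceed chance was not tested.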

How the data were processed

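RNA of 12 libraries of MLE-12 cells, 3 per group, was sequenced. For each library the authors deposited raw read counts and FPKM of 34745 genes. Per the labels and the study's methods, reads were filtered with Seqtk and mapped with HISAT2 2.0.4, and the submitters' processing notes also name StringTie 1.3.0, edgeR and GRCm38. The counting program, the annotation and the use of strand are not given in the sources used here. The reads were not analysed here.

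The counts were tested with edgeR 4.0.16 in R 4.3.3 (filterByExpr, TMM, quasi-likelihood F test) on the 6 libraries of each comparison, and on 12 libraries for the interaction of M2-Exo with the model. P-values were adjusted by Benjamini-Hochberg over all genes tested, 13353 to 14187 per comparison, and 0.05 was the threshold. CPM were scaled by TMM over all 12 libraries. Levels were compared between genes by the deposited FPKM, which carry no TMM scaling. Log2 fold changes are given with their SE, and intervals are 95%. Total counts per library limit the precision of rare genes such as Fosb. Libraries of a group differed by more than sampling noise, so none was counted as a repeat of another.

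The 10 genes and the lists were chosen with earlier results of these data known. The 10 genes were always named. From each list, up to 3 genes called in each direction with the largest change were named per comparison, or else the gene with the smallest adjusted p, and Zak and Mapk14 could be named anywhere. Some genes that met this rule are not reported here. The genes most alike were the 3 with the highest r among genes with a mean of at least 100 counts, using log2 CPM (prior count 2). The fit was tested on simulated data. The alternatives were RLE, library size alone, no filter, at least 10 counts in every library, DESeq2 1.42.0, a replicate block, all 12 libraries in a fit, limma 3.58.1 on log2(FPKM + 1) with a mean FPKM of at least 1, the study's thresholds (unadjusted p under 0.05, log2 fold change of at least 2) and each library left out.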

Additional observations from a re-analysis of the deposited data

How the results depend on the processing

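The calls and directions of the 9 genes that differed between the models held under every setting with the same threshold. Under the study's thresholds 2 of the 10 genes passed in each comparison between the models, since most gaps were under that fold. In LPS + M2-Exo against LPS, DESeq2 called 1 gene (Fosl2), and the difference of the M2-Exo effect gave 0 to 1 genes with a library left out. Egr2 in LPS + M2-Exo against Hyp + M2-Exo passed with no filter (-0.71, adjusted p = 0.0436 by edgeR), by DESeq2 (-0.7, 0.0224) and under a replicate block (-0.64, 0.0259), and the block changed no other call of the 10 genes.

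The replicate numbers did not pair the libraries, since departures of same-numbered libraries correlated by -0.026 to 0.082. The block gave 6 calls over all genes in LPS, 8 in hyperoxia and 3 for the difference, beside 25, 14 and 5. DESeq2 gave 130, 37 and 70, all 12 libraries in the fit 12 and 2 for M2-Exo in LPS and hyperoxia, the study's thresholds 3, 6 and 36 (1060 and 983 between the models), and no filter 13 for the difference. Leaving out the first LPS library gave 39 calls in LPS, and leaving out the first Hyp + M2-Exo library 34 for the difference, where leaving out LPS 1, LPS 3, LPS + M2-Exo 2 or Hyp 2 gave 8 to 10. The cause was not tested.

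Signs turned when 1 library was left out, for genes that were not called. For M2-Exo in LPS the ranges were -0.079 to 0.039 (Fos), -0.114 to 0.255 (Fosl1), -0.065 to 0.0025 (Junb), -0.0053 to 0.104 (Jund) and -0.157 to 0.048 (Egr2). In hyperoxia they were -0.112 to 0.045 (Jun), -0.016 to 0.051 (Junb) and -0.038 to 0.114 (Egr1). Egr2 ranged from -0.13 to 1.02 in LPS against Hyp. For the difference between the models they were -0.073 to 0.473 (Fosb), -0.252 to 0.121 (Fosl1) and -0.021 to 0.128 (Egr1). The intervals of Fosb, Fosl1 and Egr2 were wide, and M2-Exo differences of any size within them remain compatible with these data.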
